A study of Mus musculus with 4 samples.

Results

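The Mu-class glutathione transferases are encoded in the mouse by the *Gstm* genes, and the 7 members examined were *Gstm1* to *Gstm7*. They were taken from the count table by gene symbol, and make up 7 of its 50559 genes. All 7 averaged 10 or more reads per library, as did 18586 genes in all. The family was chosen by a measured value, the log2 ratio of *Gstm3* on *Ythdf2* knockdown, which is among the largest falls, so the knockdown values below describe how the members were found and support nothing.

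Poly(A)+ RNA-seq was made from E14 mouse embryonic stem cells (ESCs), with 1 library per group and no replicate, to ask which transcripts depend on YTHDF2 and on its binding of m6A. YTHDF2 reads N6-methyladenosine (m6A) on cytoplasmic RNA and promotes decay of the transcripts it binds. The control carried a scrambled hairpin and an empty vector (shScram+EV, here the control library), and the other 3 groups all carried a *Ythdf2* hairpin, together with an empty vector (shYthdf2+EV, here the knockdown library), wild-type YTHDF2 (shYthdf2+DF2WT, the wild-type library) or YTHDF2 mutated where it binds m6A (shYthdf2+DF2Mut, the mutant library). Per the study's methods the hairpins were delivered by lentivirus into stable lines bearing a MERVL-driven tdTomato reporter, and per the labels cultures were kept on gelatin with LIF, while the labels do not say which *Ythdf2* hairpin was used or whether a line was a clone or a pool.

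Glutathione transferases join the thiol of glutathione to electrophilic compounds, which makes these more soluble and marks them for export from the cell. The cytosolic enzymes fall into classes such as Alpha, Mu, Pi and Theta, and the Mu-class genes lie side by side in a tandem cluster that arose by gene duplication. Several of them, among them *Gstm1* and *Gstm3*, are known targets of the oxidative stress factor NRF2, which binds antioxidant response elements (AREs) in promoters.

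The cluster spans 149 kb of chromosome 3 (mm39, 107803170 to 107952495), in the order *Gstm5*, *Gstm7*, *Gstm6*, *Gstm3*, *Gstm2*, *Gstm1* and *Gstm4*. *Gstm5* (107803170 to 107806001) is on the plus strand. The other members are on the minus strand, with *Gstm7* at 107833650 to 107839193, *Gstm6* at 107846163 to 107860957, *Gstm3* at 107871012 to 107876490, *Gstm2* at 107889018 to 107893736, *Gstm1* at 107919566 to 107925289 and *Gstm4* at 107937887 to 107952495. RefSeq listed 12 promoters for the 7 genes on an older build (GRCm38.p6), each taken from 250 bases before to 50 bases after an annotated start. The promoters of 4 members are printed 5′ to 3′, with the start at base 0, because these genes carry the patterns below. They are those of *Gstm3* (chr3:107969125-107969424, minus strand), which differed most between libraries, of *Gstm1* (its second listed start, chr3:108017769-108018068, minus strand) and *Gstm2* (chr3:107986371-107986670, minus strand), the most abundant members, and of *Gstm5* (chr3:107895604-107895903, plus strand), the member that lay on the other side of the control. Capitals mark matches, on either strand, to the ARE core TGACNNNGC, the TATA box TATAAA, the GC box GGGCGG and the CCAAT box, and no matches overlap in these 4 windows.
Gstm3: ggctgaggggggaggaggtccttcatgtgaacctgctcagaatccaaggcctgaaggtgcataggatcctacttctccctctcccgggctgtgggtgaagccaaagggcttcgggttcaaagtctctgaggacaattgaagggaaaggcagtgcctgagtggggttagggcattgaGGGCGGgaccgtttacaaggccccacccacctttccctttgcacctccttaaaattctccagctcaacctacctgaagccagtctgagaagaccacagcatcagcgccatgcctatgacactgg
Gstm1: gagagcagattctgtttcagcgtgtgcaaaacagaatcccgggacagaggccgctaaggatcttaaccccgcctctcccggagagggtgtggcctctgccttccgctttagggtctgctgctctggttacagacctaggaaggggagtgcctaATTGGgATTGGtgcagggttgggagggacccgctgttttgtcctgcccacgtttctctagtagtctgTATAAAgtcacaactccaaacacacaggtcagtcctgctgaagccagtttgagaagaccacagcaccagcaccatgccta
Gstm2: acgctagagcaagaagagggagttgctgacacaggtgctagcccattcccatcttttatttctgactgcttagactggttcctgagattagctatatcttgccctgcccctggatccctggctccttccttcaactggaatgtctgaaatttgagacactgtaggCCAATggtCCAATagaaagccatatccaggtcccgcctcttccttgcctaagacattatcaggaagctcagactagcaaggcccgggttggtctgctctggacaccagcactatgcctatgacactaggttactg
Gstm5: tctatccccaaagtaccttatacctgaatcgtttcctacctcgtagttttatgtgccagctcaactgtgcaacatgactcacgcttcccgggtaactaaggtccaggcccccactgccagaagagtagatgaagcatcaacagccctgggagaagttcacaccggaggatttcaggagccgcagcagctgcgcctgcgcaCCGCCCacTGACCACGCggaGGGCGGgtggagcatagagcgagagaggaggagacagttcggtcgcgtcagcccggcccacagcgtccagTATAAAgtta

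The *Gstm3* window held a single match, a GC box from base -74 to -69. That of *Gstm1* held a TATA box from base -30 to -25 and CCAAT boxes on the reverse strand from -97 and -91, while that of *Gstm2* held CCAAT boxes from -85 and -77. The *Gstm5* window held the ARE core from -42, GC boxes from -50 (reverse strand) and -30, and TATAAA after the start, from base 40. Of the other members' windows, only the second of *Gstm7* held an ARE core match, from -129. Among all 32851 mouse promoters of the same length, 12.4% held the ARE core, 13.6% the TATA box, 35.7% the GC box and 37.4% the CCAAT box. These matches describe the letters only. The longest run shared by windows of different members was 16 bases, tgagaagaccacagca, after the starts of *Gstm3* and of *Gstm1*. *Gstm3* and *Gstm2* shared a run of 14 bases, atgcctatgacact, also after their starts.

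The members are similar enough for reads to be lost or shared. Over the coding sequences (657 bases for 5 members, 675 for *Gstm5* and 699 for *Gstm6*) the closest pair was *Gstm1* and *Gstm3* at 89.5% identity, and *Gstm5* stood farthest from the rest, at 66.6% to 71.0%. Of all 100-base windows of the longest transcript, 13.8% in *Gstm3* occurred unchanged in another gene (*Gstm1*, *Gstm6* or the pseudogenes *Gstm2-ps1* and *Gm8834*). The share was 7.73% in *Gstm1*, 2.41% in *Gstm6*, 0.622% in *Gstm2* and 0 in *Gstm4* and *Gstm7*. In *Gstm5* it was 9.34%, all of it shared with *4933431E20Rik*, a gene on the opposite strand that overlaps it. Reads that aligned to several places, or fell in several genes, were left out by the authors' counting, so these members are undercounted to an unknown degree. The pseudogenes had at most 9 reads in any library.

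The libraries held 31533129 to 35742335 reads, and 3 counts, taken as the floor, corresponded to 0.0839 to 0.0951 counts scaled to library size (CPM). *Ythdf2* had 2806 reads in the control library, 662 in the knockdown library, 7661 in the wild-type library and 6925 in the mutant library. The scaled level was therefore 20.7% of the control on knockdown, and 262% and 245% with the constructs, whose own reads cannot be told apart from those of the endogenous gene. The 8 ESC markers were detected in every library, at a summed 4956 to 5376 CPM. Reads of 7 Y-linked genes summed to 4, 672, 105 and 602 in those libraries, although E14 is a male line. The libraries with few such reads are those in which *Gstm3* was high. Markers of the 2-cell-like (2C) state, a rare state of ESCs with transcripts of the 2-cell embryo, summed to 90.6, 324, 106 and 279 CPM, and were likewise low where *Gstm3* was high. Markers of neural cells were at 70.4, 122, 90.4 and 116 CPM and those of primitive endoderm at 16.2, 23.1, 12.6 and 24.1 CPM, while those of mesoderm were at 2.31 to 5.84 CPM and those of feeder fibroblasts at 15.0 to 18.3 CPM, with *Dcn* and *Lum* at 0 throughout. Trophectoderm markers were at 89.8, 73.4, 89.1 and 81.4 CPM, a sum that was high where *Gstm3* was high. By gene the 6 trophectoderm markers were divided. On knockdown 4 were lower and 2 higher, and with the mutant against wild-type YTHDF2 3 were lower and 3 higher. The part of these differences in the *Gstm* results was not tested. Fewer cells that express a gene and less of its RNA per cell cannot be told apart in bulk libraries.

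*Gstm3* was high in the control and with wild-type YTHDF2, and low with the empty vector and with the mutant. It had 155 reads in the control library, 29 in the knockdown library, 145 in the wild-type library and 40 in the mutant library. Scaled to exon length and library size (FPKM), its level was 4.08 in the control (95% Poisson interval 3.22 to 5.10), 0.671 in the knockdown (0.371 to 1.12), 3.66 with wild-type YTHDF2 (2.87 to 4.61) and 1.05 with the mutant (0.639 to 1.62). The intervals of the high pair overlapped each other, as did those of the low pair, and no interval of one pair reached the other. All intervals given here cover counting error only, and may understate it, since amplified reads are not independent molecules. With 1 library per group there is no replicate spread, so the intervals compare libraries and not conditions.

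*Gstm1* and *Gstm2*, the most abundant members, had the same high and low pairs of libraries over a narrower range. *Gstm1*, the major Mu-class enzyme of mouse liver, had 750, 484, 631 and 465 reads in the control, knockdown, wild-type and mutant libraries, or 17.3, 9.81, 14.0 and 10.7 FPKM. *Gstm2* had 343, 250, 310 and 206 reads in that order, or 10.5, 6.75, 9.13 and 6.28 FPKM. The knockdown and mutant libraries were thus at 56.7% and 61.6% of the control for *Gstm1*, and at 64.1% and 59.7% for *Gstm2*, whereas the wild-type construct was at 80.8% and 86.8%. For *Gstm2* the Poisson intervals of the knockdown (5.61 to 8.04 FPKM) and wild-type libraries (7.75 to 10.7 FPKM) overlapped.

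*Gstm4*, at the far end of the cluster, was spread less. It had 315, 250, 272 and 291 reads, or 4.46, 3.11, 3.70 and 4.09 FPKM, and only the levels of the control (3.79 to 5.21) and the knockdown (2.59 to 3.71) had intervals that did not overlap. Unlike *Gstm1* to *Gstm3*, *Gstm4* was no lower with the mutant than with wild-type YTHDF2.

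The remaining members had few reads. *Gstm5*, known from brain and testis, had 33, 74, 50 and 47 reads, or 1.15, 2.26, 1.67 and 1.62 FPKM, and was the only member lowest in the control library. Its antisense neighbour *4933431E20Rik* had 12, 29, 8 and 14 reads, and reads in their overlap were left out of the counts of both. *Gstm6* had 31, 31, 73 and 22 reads, or 0.562, 0.494, 1.27 and 0.396 FPKM, and stood out only in the library with wild-type YTHDF2, at 226% of the control. *Gstm7* had 78, 66, 49 and 60 reads, or 1.62, 1.21, 0.978 and 1.24 FPKM, and its intervals overlapped among all 4 libraries.

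**Figure D1:**
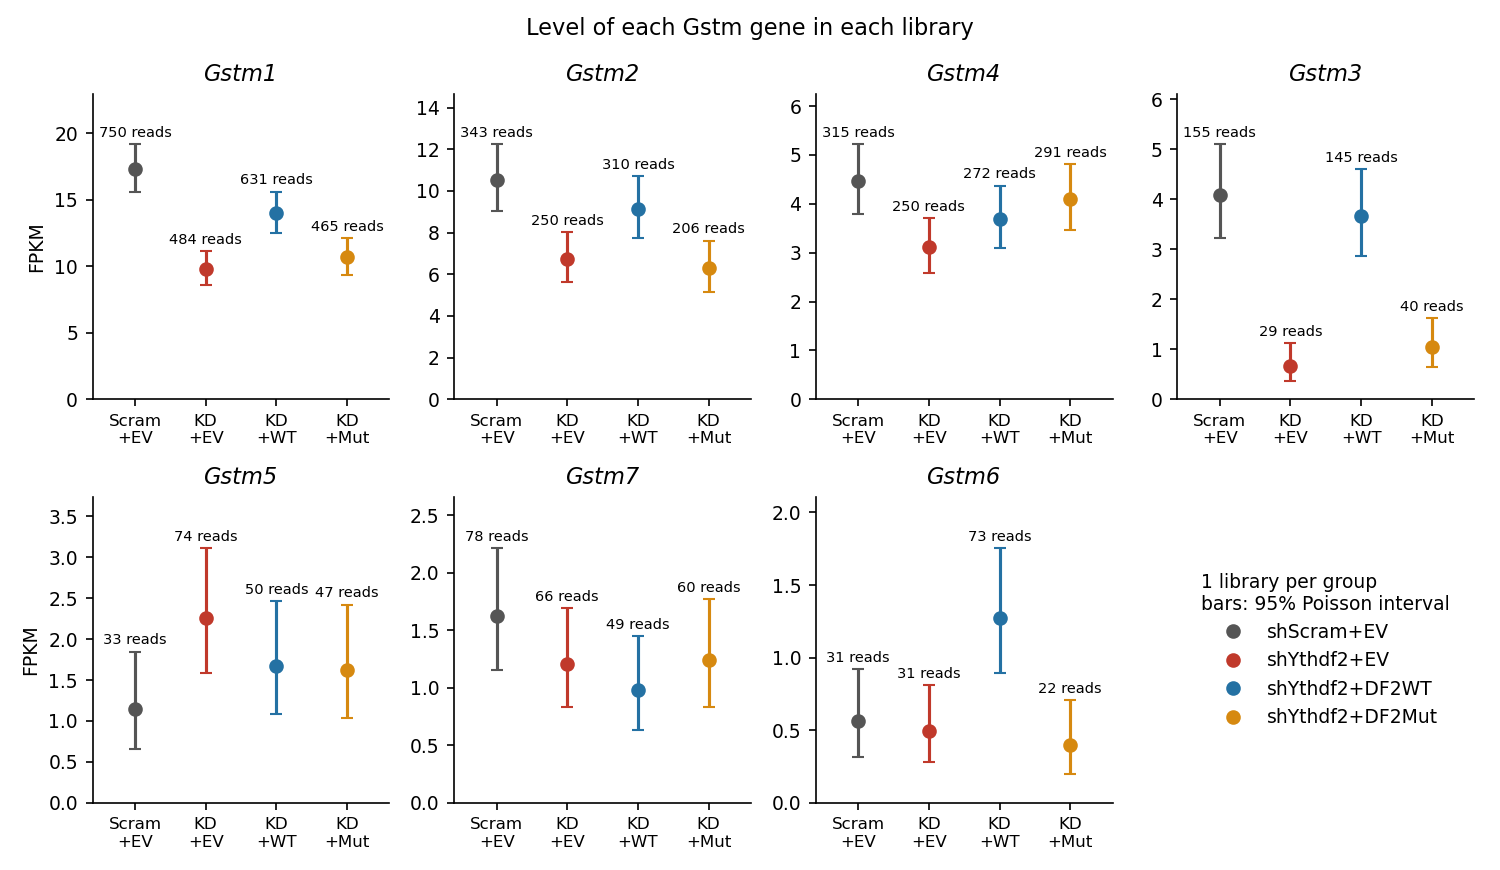
Level of each *Gstm* gene (y axis, FPKM from 0) in the 4 libraries (x axis; KD, *Ythdf2* hairpin; EV, empty vector; WT and Mut, wild-type and mutant YTHDF2), with 1 library per group, 95% Poisson intervals as bars and reads printed above. *Gstm3* sits at 4.08 and 3.66 FPKM in the control and wild-type libraries against 0.671 and 1.05 in the other libraries, and *Gstm5* is the only member whose lowest point is the control.

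Counted in percentage points, the composition of the family shifted most in the shares of *Gstm3*, *Gstm4* and *Gstm5*. Summed over the members, the level was 39.7 FPKM in the control, 24.3 in the knockdown, 34.4 with wild-type YTHDF2 and 25.3 with the mutant. *Gstm1* made up 40.4% to 43.6% of this sum in every library, and *Gstm2* 24.8% to 27.8%. *Gstm3* made up 10.3% in the control and 10.7% in the wild-type library, but 2.76% in the knockdown and 4.13% in the mutant library. The share of *Gstm4* was 11.2% in the control, 12.8% in the knockdown, 10.8% in the wild-type library and 16.2% in the mutant library, and so was highest with the mutant. That of *Gstm5* was 2.89%, 9.30%, 4.85% and 6.40% in the same order, highest in the knockdown. The smaller share of *Gstm6* was 1.42%, 2.03%, 3.70% and 1.56%, highest in the wild-type library. Per length the order was *Gstm1*, *Gstm2* and *Gstm4* at the top in every library, with *Gstm3* beside *Gstm4* (overlapping intervals) in the control and wild-type libraries. In the knockdown and mutant libraries *Gstm3* lay in sixth place, below *Gstm5* and *Gstm7* and above *Gstm6*, and its interval overlapped those of *Gstm6* and *Gstm7* in both, and that of *Gstm5* in the mutant library.

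On knockdown, 6 of the 7 members were lower in the knockdown library than in the control and 1, *Gstm5*, was higher. The log2 ratio was -2.58 for *Gstm3* (95% counting interval -3.52 to -1.78), a 5.99-fold difference, -0.82 for *Gstm1* (-1.06 to -0.58), -0.64 for *Gstm2* (-0.99 to -0.30) and -0.52 for *Gstm4* (-0.87 to -0.17). *Gstm5* was at 0.97 (0.11 to 1.91). *Gstm6* at -0.18 (-1.30 to 0.93) and *Gstm7* at -0.42 (-1.14 to 0.28) could not be placed on either side of 0 at this depth. Only *Gstm3* was at least 2-fold apart, as were 12.8% of all 18586 genes, and 5 members had an interval that left out 0, as did 46.0% of all genes. Among the 13995 genes that averaged 50 or more reads, *Gstm3* was number 3 from the bottom, which is the value that chose the family. Reads of all members summed to 1705 in the control and 1184 in the knockdown, for a log2 ratio of -0.71 (-0.87 to -0.56), and of -0.61 without *Gstm3*. The median of the members was -0.52 and that of all genes -0.0015.

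Wild-type YTHDF2 was set against the knockdown to ask which transcripts return when the protein is put back. Both comparisons use the knockdown library, so a low count there lowers one ratio and raises the other. *Gstm3* was higher in the wild-type library by a log2 ratio of 2.43 (1.62 to 3.37), and ranked number 4 from the top among the 13995 genes. *Gstm6* was higher by 1.35 (0.47 to 2.32), although it had the same 31 reads in the knockdown and the control. *Gstm1* was at 0.51 (0.26 to 0.76) and *Gstm2* at 0.44 (0.09 to 0.79). *Gstm4* at 0.25 (-0.11 to 0.61), *Gstm5* at -0.43 (-1.23 to 0.33) and *Gstm7* at -0.30 (-1.12 to 0.50) had intervals that held 0. Thus 2 members were at least 2-fold higher, against 10.7% of all genes in either direction, and 4 had an interval above 0, against 42.7% of genes with an interval on either side. The family sum was 1530 reads with the construct, a log2 ratio of 0.50 (0.34 to 0.65) over the knockdown, and the median of the members was 0.44 beside 0.0027 for all genes.

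With the m6A-binding mutant, 6 of the 7 members had an interval against the knockdown library that held 0. *Gstm3* was at a log2 ratio of 0.63, with a wide interval (-0.41 to 1.72) from 40 against 29 reads. *Gstm4* was the only member with an interval that left out 0, at 0.39 (0.04 to 0.75), where 27.6% of all genes had one. *Gstm1* was at 0.12 (-0.15 to 0.38), *Gstm2* at -0.10 (-0.49 to 0.29), *Gstm5* at -0.47 (-1.29 to 0.31), *Gstm6* at -0.31 (-1.58 to 0.89) and *Gstm7* at 0.04 (-0.72 to 0.80). None was at least 2-fold apart, where 6.03% of all genes were, and the widest of these intervals do not exclude a 2-fold difference. The family sum of 1131 reads gave 0.11 (-0.06 to 0.28), and the median of the members was 0.04.

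The constructs were then compared with each other, which uses neither library of the knockdown comparison. *Gstm3* was lower with the mutant than with wild-type YTHDF2 by a log2 ratio of -1.80 (-2.60 to -1.08), a 3.47-fold difference from 40 against 145 reads. It was number 33 from the bottom of the 13995 genes. *Gstm6* was lower by a similar ratio, -1.66 (-2.80 to -0.68), from 22 against 73 reads. *Gstm1* was at -0.39 (-0.64 to -0.14) and *Gstm2* at -0.54 (-0.91 to -0.17), while *Gstm4* was at 0.15 (-0.20 to 0.49), *Gstm5* at -0.04 (-0.92 to 0.83) and *Gstm7* at 0.34 (-0.48 to 1.17). In this comparison 2 members were at least 2-fold lower and none higher, against 11.6% of all genes in either direction, and 4 had an interval below 0, against 47.5% of genes with an interval on either side. The family sum was at -0.39 (-0.55 to -0.23), and at -0.29 without *Gstm3*. The median of the members was -0.39 and that of all genes -0.01. Genes with a GC content like that of *Gstm3* had a median of -0.11 here, and *Gstm3* was at -1.68 once this was taken off. Y-linked and 2C marker reads, given above, were also higher with the mutant than with wild-type YTHDF2, and their part was not tested.

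The libraries with a construct were also set against the control, which is the control of the knockdown ratio that chose the family, so a high count there lowers these ratios as well. With wild-type YTHDF2, *Gstm3* was at a log2 ratio of -0.15 (-0.64 to 0.33), and *Gstm1* remained lower at -0.31 (-0.53 to -0.09). *Gstm6* was the only member at least 2-fold apart, higher by 1.16 (0.28 to 2.14), where 6.89% of all genes were. With the mutant, *Gstm3* was the only member at least 2-fold apart, at -1.95 (-2.75 to -1.24), where 12.2% of all genes were. *Gstm1* at -0.70 (-0.94 to -0.46) and *Gstm2* at -0.74 (-1.11 to -0.38) were lower as well. The family sum was 86.1% of the control with wild-type YTHDF2 and 65.9% with the mutant, beside 61.0% with the empty vector.

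**Figure D2:**
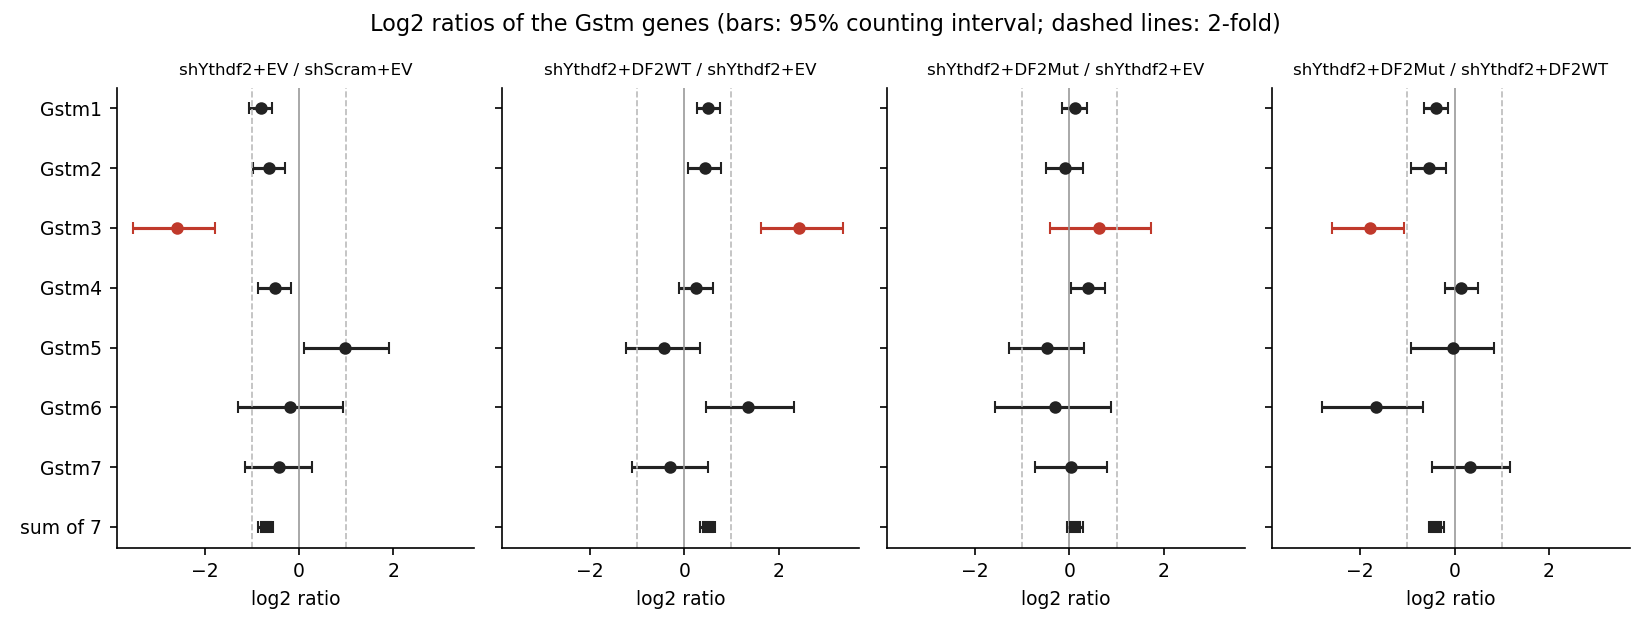
Log2 ratios (x axes) of the 7 *Gstm* genes and of their summed reads in 4 comparisons of single libraries, with 95% counting intervals as bars, *Gstm3* in red and dashed lines at 2-fold. *Gstm3* lies at -2.58, 2.43, 0.63 and -1.80 from left to right, and the sum at -0.71, 0.50, 0.11 and -0.39.

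The genes described next to the cluster were less far apart than *Gstm3* both on knockdown and between the constructs. Of 9 nearby genes averaging 50 or more reads none was 2-fold apart on knockdown, with log2 ratios from -0.76 for *Kcnc4*, a potassium channel subunit, to 0.15 for *Ampd2*, an AMP deaminase, and a median of -0.11. With the mutant against wild-type YTHDF2 they ranged from -0.91 for *Gm52629* to 0.32 for *Gnai3*, a G protein subunit, again with none 2-fold apart. The others were *Rbm15*, which recruits the m6A writer complex to RNA, *Ahcyl1*, *Amigo1*, *Cyb561d1* and *Atxn7l2*, at -0.01, -0.49, -0.64, -0.10 and -0.05 on knockdown. *Kcnc4*, with 48, 32, 85 and 81 reads, was higher than the knockdown with both constructs, by 1.52 with wild-type YTHDF2. For wild-type YTHDF2 against the knockdown the 9 genes had a median of 0.35, beside 0.44 for the *Gstm* genes and -0.04 for chromosome 3. After scaling, *Amigo1*, *Ahcyl1*, *Gm52629* and *Atxn7l2* had the same high and low libraries as *Gstm3*, though not all beyond counting error. The other neighbours did not. The median of 496 chromosome 3 genes differed from that of the other autosomes by 0.01 on knockdown and 0.05 for the mutant against wild-type YTHDF2. Within the cluster, the members that were 2-fold apart in any of the 6 comparisons, *Gstm3* and *Gstm6*, are next to each other, while *Gstm7* and *Gstm2* on either side of them were not.

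**Figure D3:**
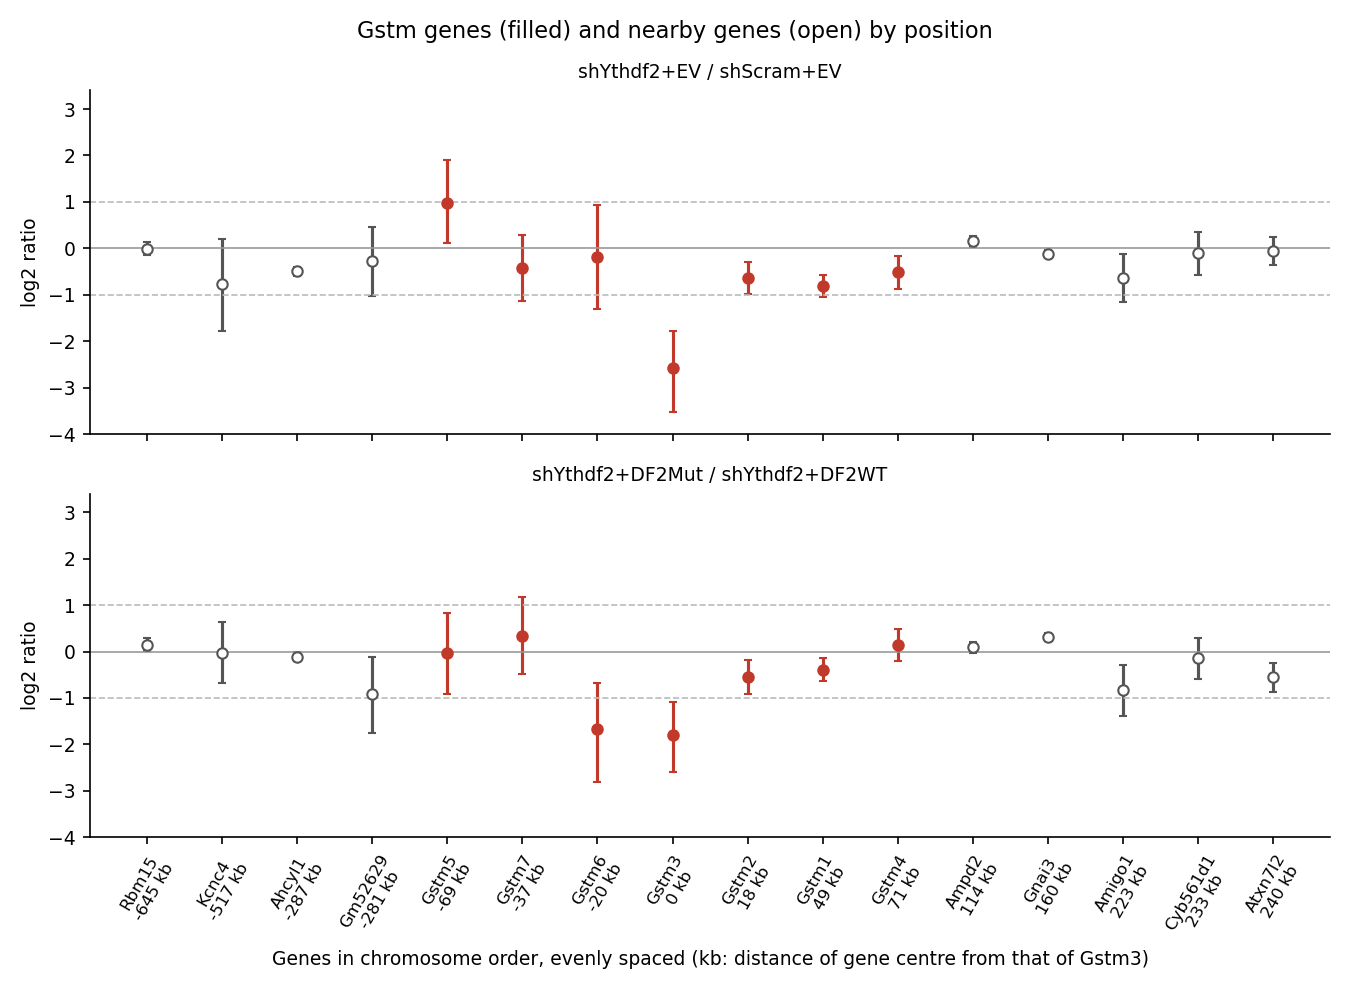
Log2 ratios (y axes) of the *Gstm* genes (filled, red) and 9 nearby genes with enough reads (open), evenly spaced in chromosome order with distances from *Gstm3* in kb, for the knockdown (top) and the mutant against wild-type YTHDF2 (bottom). Bars are 95% counting intervals and dashed lines mark 2-fold. *Gstm3* lies at -2.58 and -1.80, and the points of all 9 genes outside the family lie between the dashed lines.

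The consensus letters of m6A sites were common in the *Gstm* transcripts. Over the longest transcript of each member there were 4 to 10 GGAC sites, or 4.23 per kb (*Gstm5*) to 8.48 per kb (*Gstm6*), where the median of 21877 protein-coding genes was 3.93 per kb. *Gstm3* had 8 sites, or 6.10 per kb. The longer form GGACT was present 2 to 4 times in each member. These are counts of letters with no measure of methylation, and the members' GC content of 50.5% to 53.6% was also above the median of 49.1%.

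The genes whose profile over the 4 libraries was most like that of *Gstm3* were named by the smallest distance between centred log2 CPM values, among 12292 genes averaging 100 or more reads. They were *Prr5l* (172, 47, 200 and 70 reads), which binds the mTORC2 complex, *Eps8l2* (464, 151, 540 and 132), an actin regulator, *Ltbp3* (274, 87, 266 and 81), which binds latent TGF-beta, the mucin *Muc2* (209, 56, 229 and 99) and the semaphorin *Sema3b* (291, 103, 311 and 120). Their distances were 0.496 to 0.722 log2 units, and 33 genes in all lay within 1. None of the 5 was on chromosome 3. For *Gstm1*, whose range was narrow, 2587 genes lay within 0.5, so that its nearest genes are little set apart. They included the nuclear receptor gene *Nr6a1* (3848, 2504, 3244 and 2411 reads), *Tmem106c*, *Slc25a23* and *Mov10l1*, at distances of 0.0121 to 0.0349.

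On knockdown, the comparison that chose the family, the other lists of genes that make, use or export glutathione had medians closer to 0 than the *Gstm* genes. With the mutant against wild-type YTHDF2 this did not hold for all of the lists. Of 12 other cytosolic transferases with enough reads none was 2-fold apart on knockdown, where 12.8% of all genes were, 9 were lower and 3 higher, and the median was -0.36 beside -0.0015 for all genes. The member with the largest ratio was the Pi-class gene *Gstp2* (289, 175, 247 and 231 reads), at -0.91 (-1.31 to -0.52). The Zeta-class gene *Gstz1*, named after its values were seen, had 1219, 742, 1066 and 620 reads, with the same high and low libraries as *Gstm3*, at -0.90 on knockdown, 0.65 for wild-type YTHDF2 against the knockdown and -0.73 for the mutant against wild-type YTHDF2. In the last of these the median of the 12 was -0.17, and 1, the Theta-class gene *Gstt2*, was 2-fold lower, at -1.13 (182, 226, 306 and 135 reads), which was picked out after its values were seen. The 5 genes of the mitochondrial and microsomal transferase list had a median of 0.17 on knockdown. All 5 were lower with the mutant than with wild-type YTHDF2, although the intervals of *Gstk1* (-1.49 to 0.47) and *Mgst1* (-1.42 to 0.97) held 0. Their median was -0.53, which is farther from 0 than the -0.39 of the *Gstm* genes. Of the 5 genes *Ptges*, the inducible prostaglandin E synthase, had 1589, 1176, 1604 and 873 reads, with the same high and low libraries as *Gstm3*. It was at -0.62 (-0.78 to -0.46) on knockdown and -0.83 with the mutant against wild-type YTHDF2.

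Glutathione synthesis and cystine supply had a median of 0.05 over 9 genes on knockdown, with none 2-fold apart. The largest ratio was that of *Cth*, which makes cysteine from cystathionine (2229, 3536, 2524 and 3287 reads), at 0.48 (0.37 to 0.59). Peroxidases and glutathione reduction had a median of 0.07 over 15 genes, again with none 2-fold apart, and the largest ratio was that of the mitochondrial glutaredoxin *Glrx2* (390, 816, 496 and 644 reads), at 0.88 (0.63 to 1.13). After scaling, *Cth* and *Glrx2* were both lowest in the control, where *Gstm3* was highest. *Cth* was close in the knockdown and mutant libraries, at 0.07 (-0.03 to 0.17) for the mutant against the knockdown. Of 17 genes of glutathione breakdown and conjugate export 2 were 2-fold higher and 1 lower, a share near the 12.8% of all genes. *Ggct*, a gamma-glutamylcyclotransferase (215, 510, 255 and 387 reads), was at 1.06 (0.73 to 1.40). The others, named after their values were seen, were *Chac1* (28, 68, 42 and 38 reads), which cleaves glutathione, at 1.08 (0.16 to 2.11) and *Ggt6* (46, 22, 51 and 29 reads) at -1.23 (-2.43 to -0.16).

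NRF2 targets outside the transferases were divided on knockdown, with 10 of 19 higher, 9 lower and a median of 0.02. With wild-type YTHDF2 against the knockdown 15 of the 19 were higher (median 0.16), and with the mutant against wild-type YTHDF2 15 were lower (median -0.19), and these comparisons share the wild-type library. On knockdown 1 was 2-fold apart, the catalase gene *Cat* (4153, 2299, 3210 and 2422 reads), at -1.04 (-1.14 to -0.93). *Cat* was also lower with the mutant than with wild-type YTHDF2, at -0.36 (-0.47 to -0.25). Of 9 regulators of NRF2 none was 2-fold apart on knockdown, and the largest ratio was that of *Maff*, a small MAF protein that pairs with NRF2 (448, 343, 659 and 272 reads), at -0.57 (-0.87 to -0.28). *Maff* was highest with wild-type YTHDF2, and lower by -1.23 (-1.53 to -0.93) with the mutant.

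**Figure D4:**
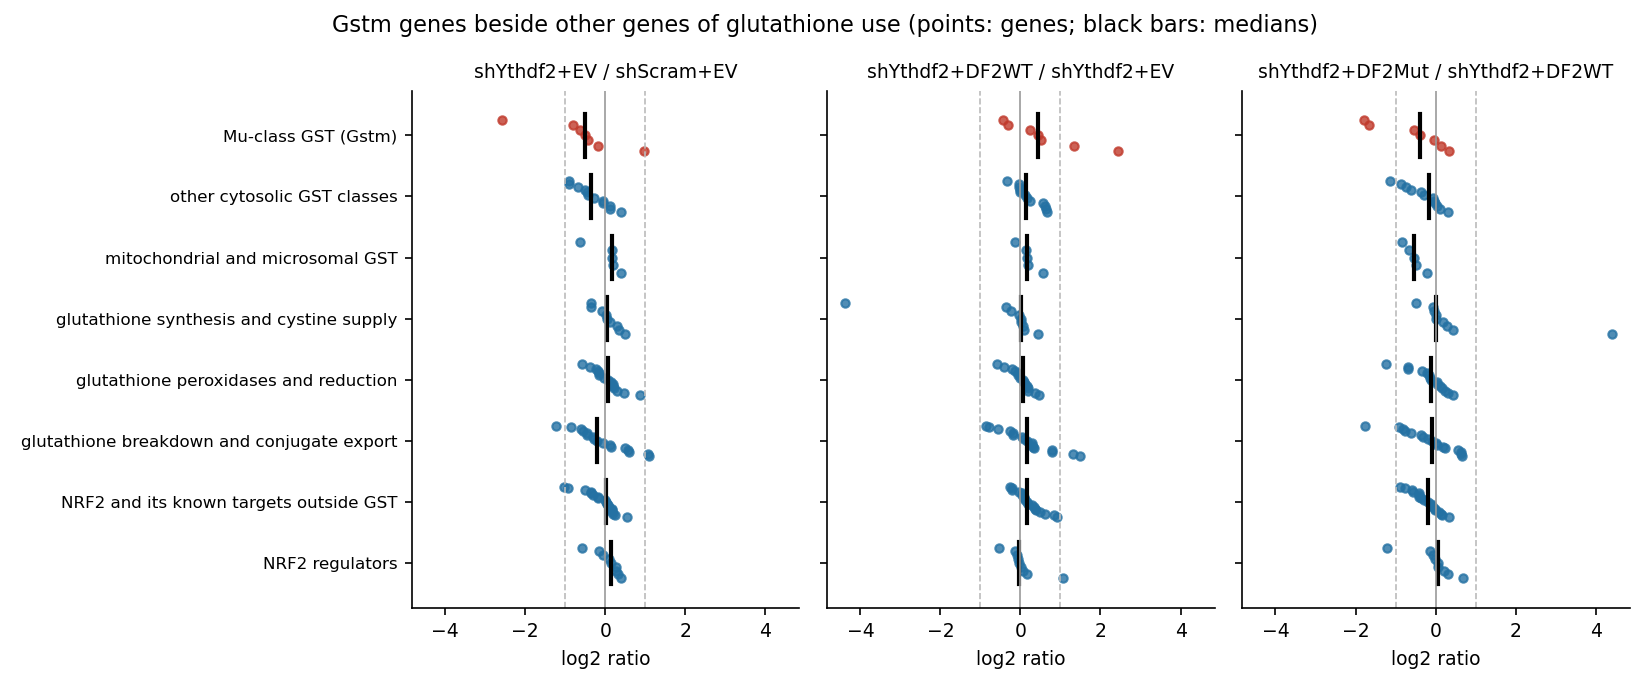
Log2 ratios (x axes) of the *Gstm* genes (red) and of the other genes in 7 lists of glutathione use and NRF2 (blue), 1 point per gene averaging 10 or more reads, black bars at list medians and dashed lines at 2-fold. The *Gstm* medians are -0.52, 0.44 and -0.39 from left to right, and the single point beyond 4 log2 units in the middle and right panels is the cystine transporter gene *Slc7a11*.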

How the data were processed

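RNA-seq was analysed for 4 libraries, 1 per group by title. The authors deposited raw read counts per gene, made per the file headers with featureCounts 2.0.3 on exons of the mm39 RefSeq annotation, unstranded, leaving out reads that aligned to several places or overlapped several genes. Both mates were counted, so reads and not pairs are given. The submitters' processing notes also list fastp 0.19.4, HISAT2 2.2.1, DESeq2 1.40.2 and mm10.

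Counts were scaled with TMM (edgeR 4.0.16, R 4.3.3). Log2 ratios carry a prior count of 0.5 in proportion to library size, and 95% Clopper-Pearson intervals on read pairs, taken as reads divided by 2. Levels are FPKM from the deposited exon lengths, with exact Poisson intervals on read pairs (scipy 1.17.1). With 1 library per group no test was made. The steps were tested on simulated data. Shares of all genes, list counts and medians cover genes averaging 10 or more reads over the libraries, while marker and Y-linked sums cover all matched genes.

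Promoters came from RefSeq (GRCm38.p6). Transcript properties came from GENCODE vM21 (GRCm38) for the longest transcript with the same symbol, and its coordinates were not used. No protein sequence was used here. Medians of chromosomes were taken over genes averaging 200 or more reads.

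The members and lists were chosen with earlier results of these data known. Of each list the genes at least 2-fold apart on knockdown and averaging 50 or more reads were named, or otherwise the 1 with the largest ratio, together with all members, *Ythdf2*, 5 neighbours on each side and the 5 genes most like *Gstm3* and like *Gstm1*. Marker and Y-linked lists are given as sums, without the genes this rule names in them. Of the neighbours and like genes 2 are not reported here. *Gsta13* was not matched in the table. The alternatives were other scalings (DESeq2 1.42.0 size factors, upper quartile, total counts), a larger prior count (5), a filter at a mean of 1 or 50 reads, a 1.5-fold ratio, a required interval that leaves out 0, family sums without *Gstm3*, without *Gstm1* or per exon length, and a correction for GC content that was chosen after seeing the data.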

Additional observations from a re-analysis of the deposited data

How the results depend on the processing

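No paired analysis was possible because each group has 1 library, and for the same reason leaving out a replicate was not possible. The alternatives gave 312 values for 60 results. The sign changed in 1, for *Gstm5* in the mutant against wild-type YTHDF2, from -0.04 to 0.000297 with the median of like GC content taken off, and both values lie within counting error of 0. All 210 values for single members and all 42 for the family sum stayed within counting error of those reported. Over its alternatives *Gstm3* ranged from -2.60 to -2.40 on knockdown, from 2.25 to 2.45 for wild-type YTHDF2 against the knockdown and from -1.82 to -1.68 for the mutant against wild-type YTHDF2.

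Of 48 counts of members at least 2-fold apart, 40 stayed and 8 moved. With total counts 2 members were 2-fold apart on knockdown, since *Gstm5* then passed the threshold. At 1.5-fold there were 4 on knockdown, 1 for the mutant against the knockdown, 2 for wild-type YTHDF2 against the control and 3 for the mutant against the control. A mean count of at least 50, which leaves out *Gstm6*, gave 1 for wild-type YTHDF2 against the knockdown, 1 for the mutant against wild-type YTHDF2 and 0 for wild-type YTHDF2 against the control. The share of all genes 2-fold apart, 6.03% to 12.8% as reported, was 21.3% to 27.95% with a mean count of at least 1 and 0.843% to 5.97% with at least 50. Depth limits *Gstm5*, *Gstm6* and *Gstm7*, which had 22 to 78 reads per library.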

Other observations

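*Slc7a11*, which encodes the cystine importer that supplies cysteine for glutathione, stood apart in a single library, and is named here after its values were seen. It had 213 reads in the control library, 309 in the knockdown library, 13 in the wild-type library and 277 in the mutant library. The library with wild-type YTHDF2 was thus far below the other libraries. The log2 ratio was -4.39 (95% counting interval -5.84 to -3.33) for wild-type YTHDF2 against the knockdown, -4.04 (-5.50 to -2.96) against the control, and 4.41 (3.34 to 5.86) for the mutant against wild-type YTHDF2. On knockdown it was at 0.35 (-0.01 to 0.72). *Gstm3* was close to its control level in the same wild-type library. Whether the difference belongs to the construct or to this library cannot be told apart with 1 library per group.

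*Gpx2*, a glutathione peroxidase gene also named after its values were seen, had 92, 70, 88 and 36 reads in the same order. It was lowest with the mutant, at -1.23 (-2.12 to -0.42) against wild-type YTHDF2 and -1.35 (-2.24 to -0.55) against the control, and at -0.58 (-1.26 to 0.09) on knockdown.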
